A study of Mus musculus with 74 samples.

Results

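The ChIP-seq sample of Zfp46 in F9 EC cells held 300 peaks, out of 53011 peaks that could be assigned to 67 labelled KRAB-ZFPs. They were chosen by the name of the KRAB-ZFP in the deposited peak table, and were set against the 20428 peaks of the 17 other FLAG-tagged KRAB-ZFPs assayed in the same cells. F9 EC is an embryonal carcinoma line of the mouse. The cells stably expressed Zfp46 with an N-3XFLAG tag from a Sleeping Beauty transposon vector, alongside the endogenous gene, and resistant clones were pooled after puromycin selection. The chromatin was precipitated with the FLAG antibody F1804, and peaks were called against an input and a FLAG control ChIP. All 18 FLAG samples shared the cell line, the tag, the antibody and these controls, and differed in the tagged protein and, for some, in the vector and the calling thresholds. Each KRAB-ZFP was assayed once, so no value has a replicate error, and an exact permutation test of 1 sample against 17 cannot give a p below 0.0556. The table holds peaks and no gene expression, so the cell type could not be checked against markers.

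KRAB zinc finger proteins are DNA-binding repressors. Their C2H2 zinc fingers read the DNA sequence, each finger contacting a few neighbouring bases, and their KRAB domain recruits KAP1 (Trim28), a scaffold for the histone methyltransferase SETDB1, heterochromatin protein 1 and the NuRD complex. Many mouse KRAB-ZFPs are recent duplicates that bind transposable elements. Zfp46 is the mouse counterpart of human ZNF436 and stands outside the large, recently expanded clusters.

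Zfp46 peaks held a cytosine-rich motif of 20 bases. The motif was fitted to 151 peaks in single-copy sequence on odd-numbered chromosomes and was then looked for in peaks on the other chromosomes. Its consensus was the following, where N marks a position at which no base reached 60%.
Zfp46 motif: CCTCCTCCAGGNAGCCCNCC

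The sites of the 10 strongest peaks with a match are given as examples. Those on odd-numbered chromosomes, at Spdef, Srcin1, Syt7, AI661453 and Cspg4, were in peaks used for the fit. All 10 were picked for having a match, so their likeness to the motif was partly fixed in advance. They are read from the mm9 reference on the strand of the motif, with the match in capitals and 5 bases on each side, and distances from a start are those of the summit. Their fold enrichments ran from 63.8 at Fahd2a to 149 at the first site.
chr12:111608781-111608810, plus strand, intergenic: atgtgCTTCCTCCAGGAAGGCCTCCtgatg
chr17:27866345-27866374, minus strand, 544 bp upstream of Spdef: ctgcaCCACCTCCAGGAAGCCCTCActgat
chrX:100208950-100208979, minus strand, at Pabpc1l2b-ps: gctggCCTCCGCCAGGCTGGCCTCCgtggc
chr11:97411843-97411872, plus strand, Srcin1 intron: gaccaCCTCCTCCAGGAAGCCTTCCtacca
chr19:10463244-10463273, minus strand, 318 bp upstream of Syt7: ggccaCCTCCTCCGAGGTGCCCTCTgactc
chrX:100262604-100262633, plus strand, at Pabpc1l2a-ps: agccgCCTCCGCCAGGCTGGCCTCCtcaag
chr17:47583737-47583766, minus strand, AI661453 intron: ccctgCCTCTTCCCAGAAGCCTCCCcgggt
chrX:91234203-91234232, minus strand, intergenic near Gm15165: cgccgCCGCCTCCGTGAAGCCCTCCatgtc
chr9:56729252-56729281, plus strand, Cspg4 intron: cctcaCCTCCTCCAGGATGTCCTCCgggat
chr2:127270349-127270378, plus strand, 41 bp upstream of Fahd2a: acctgCTTCCTCCCGGAAGTCCGCCctcct

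Each of the first 8 positions held its commonest base in at least 73 of the 85 matches in peaks that the fit had not used. Among these matches cytosine stood at position 4 in 85 sites, at position 7 in 84 and at position 1 in 81, counting from the 5′ end. Positions 9, 12 and 15 held their commonest base in 50, 54 and 52 of the 85 sites. A match shared a median of 17 of its 20 bases with the commonest bases, with a range of 13 to 20. Matches were picked by their score under the same motif, so this agreement with its commonest bases was partly fixed in advance. The base directly before the motif, which the fit of 20 bases had not used, carried 0.19 bits, and the base before that carried 0.93 bits, against 1.89 bits at position 4.

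Of the 139 Zfp46 peaks on even-numbered chromosomes and X, which the fit had not used, 85 held a match. This is 61.2%, with a 95% Wilson interval of 52.9% to 68.8%. A match was a score over 17.8 bits anywhere in the 200 bp window around the summit, the level that marks off the highest 0.1% of such windows in mm9. Scores equal to this level, within 0.0001 bits, were not counted; 5 Zfp46 peaks had one, all with the same 20 bases, and with the 3 of them on these chromosomes the share would be 88 of 139, or 63.3%. Among windows 1 kb to either side of all 300 summits, 3 of 600 held a match, or 0.5%. Among the peaks of the 17 other FLAG samples 70 of 20428 held one, or 0.343%. These intervals and the others given for shares cover counting error only.

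The 17 other samples lay far below Zfp46 in this share. In 8 of them no peak held a match. Zero counts allow a share of up to 5.77% in Zfp534, with 52 peaks, and of up to 0.545% in Gm13051, with 550 peaks. The highest share among the others was 1.1% in Gm13152, where 57 of 5189 peaks held a match (interval 0.849% to 1.42%). Gm13152 thus gave 57 of the 70 matches, and without it 13 of 15239 peaks held a match, or 0.0853%. Of the 57 matched Gm13152 peaks 15 overlapped a Zfp46 peak. Of all Gm13152 peaks 50.05% had a summit within 1 kb of a transcript start. At such starts 48 of 3744 peaks of the 17 other samples, Gm13152 included, held a match, or 1.28%.

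**Figure D1:**
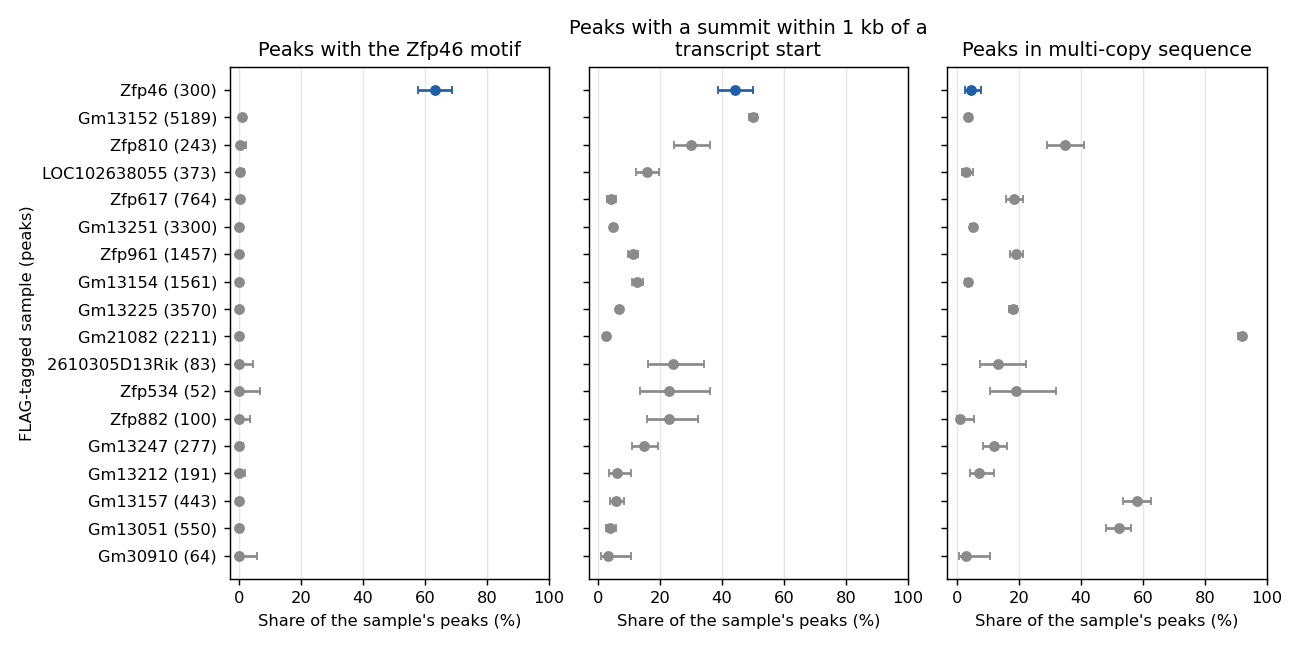
Share of peaks in each of the 18 FLAG-tagged F9 samples (number of peaks in brackets) with the Zfp46 motif, with a summit within 1 kb of a transcript start, and in multi-copy sequence. Points are shares in percent and bars are 95% Wilson intervals; Zfp46 (blue) stands at 63.3% over all of its peaks, including those used to find the motif, while every other sample is at or below 1.1%.

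The match lay close to the summit. In the 85 matched peaks not used for the fit, the centre of the match was a median of 14 bp from the summit (quartiles 7 and 25 bp), and in 64 of them, or 75.3%, it was within 25 bp. In the 70 matched peaks of the other FLAG samples the median distance was 46 bp, and 23 of them, or 32.9%, had the match within 25 bp. The motif thus stood at the centre of the Zfp46 peaks and was spread over the window in the others.

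**Figure D2:**
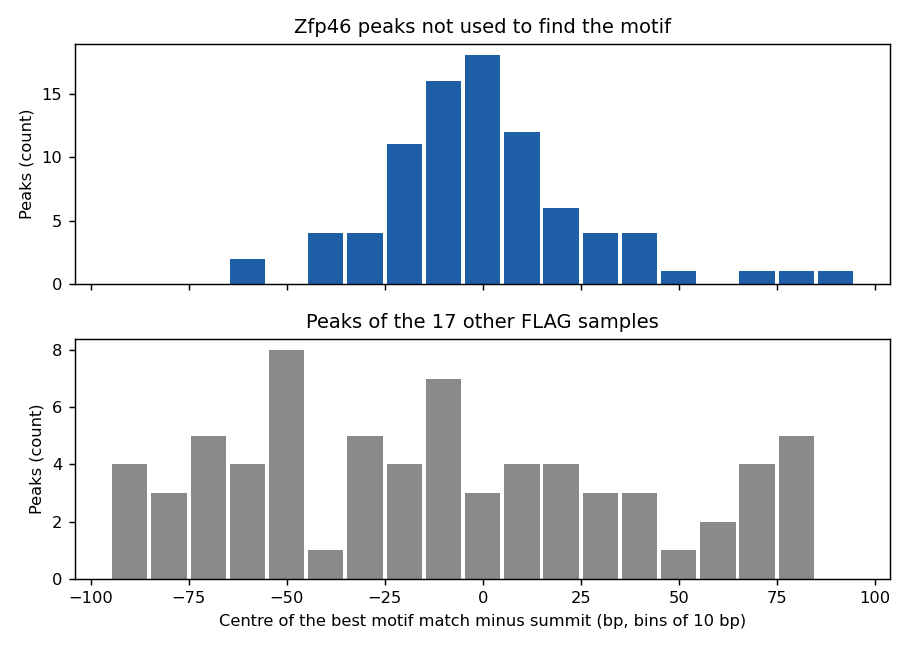
Number of peaks by the distance of the best motif match from the summit (bp, bins of 10 bp), for the 85 matched Zfp46 peaks not used to find the motif and for the 70 matched peaks of the 17 other FLAG samples. The Zfp46 matches gather around the summit, within 25 bp in 64 of 85, while those of the other samples spread over the window.

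Fold enrichment, the deposited ratio of tags to the local background, ran from 20.0 to 149 in the Zfp46 peaks with a median of 28.2 (quartiles 23.1 and 35.7). The lower end is set by the calling threshold of 20. The 17 other FLAG samples had median folds from 11.8 in Gm13225 to 62.4 in Gm13157, and Zfp46 ranked 11 of 18. Some of these samples had been called with an enrichment threshold of 10, which lowers their medians. The number of tags per Zfp46 peak had a median of 47.5 and the called width a median of 335 bp, and at the 300 peaks the deposited false discovery rate did not exceed 0.2%.

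Peaks with and without a match covered a similar range of fold. Among the 139 peaks not used for the fit, the 85 with a match had a median fold of 28.9 (quartiles 24.1 and 35.7) and the 54 without had 28.9 (quartiles 24.1 and 32.3). Across these peaks Pearson's r between motif score and log10 fold was 0.15 and Spearman's rho was 0.091, over 139 peaks of 1 library. The 23 peaks with a score of 26 bits or more had a median fold of 28.9, like the 21 peaks under 12 bits, also with 28.9. The share with a match was 60.5% of 38 peaks with a fold of 20 to 25, 54.0% of 63 peaks with 25 to 35 and 73.7% of 38 peaks with more than 35, and the intervals of these shares overlapped. Over all 300 peaks, including those used for the fit, the 180 with 1 match had a median fold of 28.5 and the 8 with 2 matches had 42.6, with a range from 20.2 to 85.0 that overlapped that of the peaks with 1 match. The 5 of these 8 in single-copy sequence ranged from 23.8 to 81.6 with a median of 40.8. The 2 peaks with 3 matches were the 2 strongest of the sample.

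**Figure D3:**
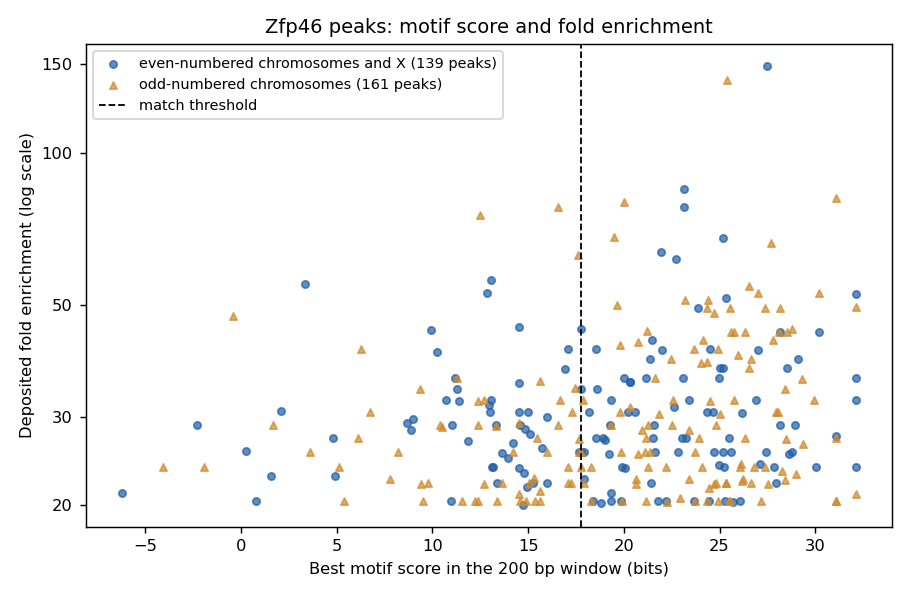
Deposited fold enrichment (log scale) of each of the 300 Zfp46 peaks against the best motif score in its window (bits), with the match threshold as a dashed line; circles are the 139 peaks not used to find the motif and triangles the 161 peaks on odd-numbered chromosomes. Peaks on both sides of the line cover mostly the same range of fold, and the 2 peaks above 100 lie to its right.

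The strongest peak lay at chr12:111608697-111608896, in intergenic sequence at -76721 bp from the start of Ppp2r5c, the nearest. It had a fold of 149, 6255 tags and a called width of 3973 bp. These tags were 25.5% of all tags counted in Zfp46 peaks. The window held 3 identical matches of 27.5 bits, 35 and 33 bp apart and all on the plus strand in a short tandem repeat. The site given above is the first of these, and the third reads as follows.
chr12:111608849-111608878, plus strand: gtttgCTTCCTCCAGGAAGGCCTCCtgatg

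The second peak lay 544 bp upstream of Spdef, which encodes an ETS transcription factor of secretory epithelia, at chr17:27866340-27866539, with a fold of 139, 584 tags and 3 matches. A pair of peaks on chromosome X, with folds of 85.0 and 78.2, lay at the neighbouring, near-identical sequences Pabpc1l2b-ps and Pabpc1l2a-ps, where the median 24-mer of the window occurred at 2 places in mm9. Reads that fit both places equally well were placed at one of them at random, so the split between the pair is uncertain. The peak in an intron of Srcin1, which encodes an adaptor that regulates the kinase Src, had a fold of 81.6 and 2 matches. Of the 10 strongest peaks, which include peaks used for the fit, 8 held a match. The other 2 lay at the starts of Sltm (fold 78.2) and Usf2 (fold 75.4) and were also called in Gm13152, as was the matched peak in the AI661453 intron.

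Zfp46 peaks lay often at transcript starts. Summits within 1 kb of an annotated transcript start made up 133 of 300 peaks, or 44.3% (interval 38.8% to 49.99%), against 18.3% of the peaks of the other FLAG samples together and 4.15% of mm9. Gm13152 gave 2597 of the start peaks of the other samples, and without it their share was 7.53%; the median of the 17 shares was 11.3%. This ranked 2 of 18 FLAG samples. Gm13152 stood above it with 50.05%, and its interval of 48.7% to 51.4% overlapped that of Zfp46. Zfp810 followed with 30.04%, and the lowest share was 2.49% in Gm21082. By annotated class, 35.3% of the Zfp46 summits were intergenic, 37.7% intronic, 14.3% in UTRs and 10.7% in coding exons. UTRs and coding exons make up 1.25% and 1.402% of mm9, and held 6.12% and 4.05% of the peaks of the other FLAG samples.

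The peaks at starts gathered within a short distance of them. Of the 133, 58 lay within 100 bp of the start, and 55 were upstream, 75 downstream and 3 on the start. The 76 with a match had a median distance of 144 bp and the 57 without had 86 bp. Their windows were rich in G and C, with a median of 67% GC and 17 CpG dinucleotides in the peaks with a match and 71.5% GC and 21 CpG in those without. Away from starts the 114 peaks with a match had a median of 52.8% GC and 2 CpG. The share of matches in peaks not used for the fit was 54.0% of 63 peaks within 1 kb of a start (interval 41.8% to 65.7%) and 67.1% of 76 peaks farther away (interval 55.9% to 76.6%), and these intervals overlapped. In the RefSeq promoters of the mouse (GRCm38.p6, 300 bases each) 0.788% of 32851 held a match. At protein-coding starts the motif lay on the strand of the gene in 27 of 69 matched peaks, or 39.1% (interval 28.5% to 50.9%).

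**Figure D4:**
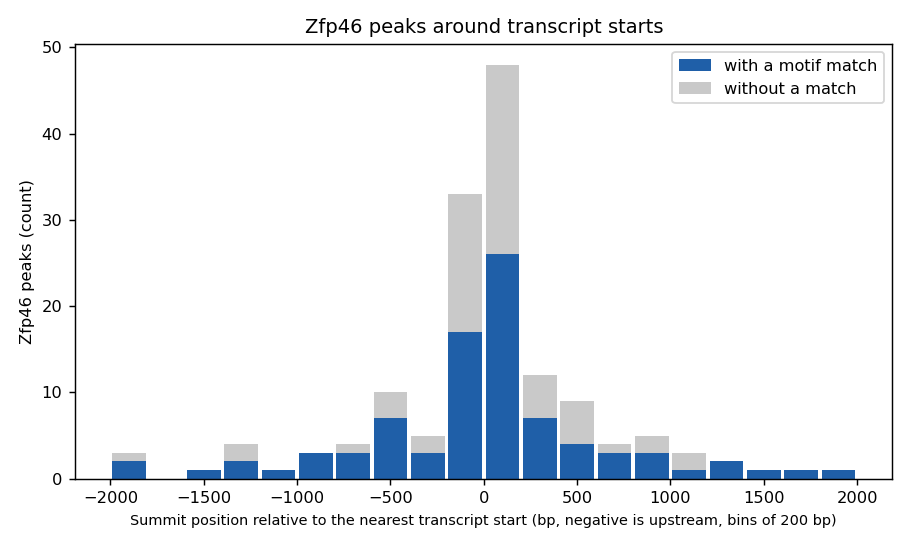
Number of Zfp46 peaks by position of the summit relative to the nearest transcript start (bp, negative is upstream, bins of 200 bp), stacked as peaks with a motif match (blue) and without (grey). Both kinds crowd around the start, where 58 of the 133 peaks within 1 kb lie within 100 bp.

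A protein-coding start within 1 kb was found for 125 peaks. Of the 15 strongest of these, which include peaks used for the fit, 11 held a match. The strongest after Spdef was 318 bp upstream of Syt7, a synaptotagmin that senses calcium in membrane fusion, with a fold of 79.9. Spdef is a transcription factor gene and its peak held matches. Other peaks at starts of genes for transcription or zinc finger proteins were those of Sltm, a modulator of transcription (fold 78.2, 10 bp upstream), Usf2, a basic helix-loop-helix factor that binds E-boxes (fold 75.4, 177 bp upstream), and Zmym5, a MYM-type zinc finger gene (fold 56.1, on the start). The last 3 held no match, and their windows had 74.5%, 79% and 73% GC. Those at Sltm and Usf2 were also called in Gm13152, with folds of 41.8 and 69.1 there. In the Zmym5 window the median 24-mer occurred at 2 places in mm9. Reads that fit both places equally well were placed at random, so the fold at Zmym5 is uncertain.

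Genes of signalling and metabolism among these 15 were Fahd2a, of the fumarylacetoacetate hydrolase family (fold 63.8), Ppp3ca, the catalytic subunit of calcineurin (fold 49.9), Acy3, an aminoacylase (fold 51.0), and Dmpk, the myotonic dystrophy protein kinase (fold 49.4), all with a match. Ppap2b, a lipid phosphate phosphatase gene, had a fold of 44.7 and a best score equal to the threshold, which was not counted as a match. Bbc3, which encodes the pro-apoptotic protein PUMA, had a fold of 52.7, with the summit 274 bp downstream of the start in an intron. Ccdc71, Ccdc124, Plekha7 of the adherens junction and Nbeal2 of platelet granules had folds of 54.4, 52.6, 49.3 and 49.3, all with a match. The peaks at Ppp3ca and Nbeal2 were also called in Gm13152. The sites at Dmpk and Ccdc124 followed the commonest base at each of the 20 positions and reached the highest score possible, 32.1 bits, and the site at Bbc3 scored 30.2 bits. These 3 sites were chosen after their values were seen. Those at Dmpk and Bbc3 were in peaks used for the fit, and that at Ccdc124 was not.
Dmpk intron, chr7:19673995-19674024, minus strand: agtctCCTCCTCCAGGAAGCCCTCCagcac
Ccdc124 intron, chr8:73397148-73397177, plus strand: ctcctCCTCCTCCAGGAAGCCCTCCcggct
Bbc3 intron, chr7:16895254-16895283, minus strand: cgtcaCCTCCTCCAGGGAGCCCTCCgggcc

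Zfp46 summits lay near few members of the gene lists examined. Of 22367 protein-coding genes, 308 had a Zfp46 summit in the body or within 10 kb of a transcript start, or 1.38%. Of 397 zinc finger genes 4 had one, or 1.01% (interval 0.392% to 2.56%): Zfp46 itself, Zfp341 (fold 37.4, in a coding exon), Zfp423 (fold 35.2, 537 bp upstream) and Zfp746 (fold 34.0, 11 bp downstream). Zfp46 is counted by peaks in its own coding exons, where reads from the vector cannot be told apart. Of 27 annotated genes of the KAP1 silencing machinery 1 had one, Chd3, a NuRD remodeller (fold 25.5, in a coding exon 246 bp downstream of the start, with a match). Of 25 pluripotency genes 1 had one, Tbx3, at 20.4. Of 187 homeobox and developmental transcription factor genes 4 had one, or 2.14% (interval 0.835% to 5.37%): Tbx10 and Six5, by the peaks at Acy3 and Dmpk named above, Lhx2 (fold 20.4, 105 bp upstream, with a match) and Tbx3. All 4 intervals include the share over all protein-coding genes.

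The Zfp46 gene held 2 of its own protein's peaks. Both lay in its coding exons, at chr4:135846068-135846267 with a fold of 55.0, 419 tags and a called width of 1290 bp, and at chr4:135843046-135843245 with a fold of 21.2 and 41 tags. Their best motif scores were 3.36 and -6.21 bits, far under the threshold. The tagged Zfp46 reading frame was amplified from cDNA, so reads from the vector and from the endogenous coding exons cannot be told apart. Among the 5 FLAG samples with a reading frame of native codons, 4 had peaks in the coding exons of the gene they expressed, namely Zfp46, Zfp617, Zfp882 and Zfp961. Among the 13 with a codon-optimised frame the gene was found by its symbol for 10, and 0 of these had such a peak. Without these 2 peaks the Zfp46 sample holds 298.

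Zfp46 peaks lay seldom in multi-copy sequence. A median of at least 10 exact mm9 copies of the 24-mers in the window was found for 14 of 300 peaks, or 4.67% (interval 2.80% to 7.68%), which ranked 13 of 18 FLAG samples. The median of the 17 others was 13.3%, with a range from 1% in Zfp882 to 91.9% in Gm21082. Of the 14 peaks 2 held a match, and 6 with scores equal to the threshold counted. The 2 were the tandem repeat on chromosome 12 and an intergenic peak at chr7:130166537-130166736 with a fold of 25.5. The other 12 included neighbouring pairs in Ttc7b (folds 52.7 and 44.5) and in intergenic sequence of chromosome 12 (folds 34.0 and 25.5). Of the 300 Zfp46 peaks, 12 lay within 10 kb of another. They included these neighbouring pairs and the 2 peaks in the Zfp46 gene. The matching share in the other FLAG samples was not counted.

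Of the 300 Zfp46 loci 43 were also called in another FLAG sample, or 14.3% (interval 10.8% to 18.8%), counting an overlap of at least 25% of the window. Of the peaks of the other FLAG samples 5.56% were also called in at least 1 other FLAG sample. Gm13152 accounted for 41 of the 43. Without it 4 loci were shared, or 1.33% (interval 0.520% to 3.38%), against 6.03% of the peaks of the 16 remaining samples (interval 5.66% to 6.42%). Zfp46 thus stood above the pooled share of the other samples with Gm13152 and below the pooled share without it. The shares of single samples were not counted. Zfp534, Zfp810, Zfp882 and Gm21082 each shared 1 locus, and the remaining 12 samples shared none.

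The loci shared with Gm13152 lay mostly at transcript starts, 29 of 41. They were 13.7% of the Zfp46 peaks and 0.79% of the 5189 Gm13152 peaks. Among peaks at starts, 21.8% of those of Zfp46 lay on a Gm13152 peak (29 of 133, interval 15.6% to 29.6%), and 21.9% of those of Zfp810 (16 of 73, interval 14.0% to 32.7%). Away from starts the share was 7.19% for Zfp46 (12 of 167) and 4.12% for Zfp810 (7 of 170), with overlapping intervals. At the 41 loci Zfp46 had the higher fold in 20, with medians of 28.2 for Zfp46 and 34.9 for Gm13152.

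Of the 43 shared loci 18 had a match, or 41.9% (interval 28.4% to 56.7%), against 172 of 257 loci found in no other FLAG sample, or 66.9% (interval 61.0% to 72.4%). These shares include peaks used for the fit; among peaks not used for it they were 30% of 20 (interval 14.5% to 51.9%) and 66.4% of 119 (interval 57.5% to 74.2%). The shared loci had a median GC content of 72.5% and the others 56.5%, and 69.8% against 40.1% lay within 1 kb of a start. The part of GC content in this difference was not tested. The loci called in the most other FLAG samples were those 71 bp upstream of Fam100a, in Gm13152 and Zfp882, without a match, and 561 bp upstream of Lrba, in Gm13152 and Zfp810, with a match; their folds in Zfp46 were 30.7 and 25.5.

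Peaks without a match numbered 110. Of these 57 lay within 1 kb of a start, 25 were shared with another FLAG sample and 12 lay in multi-copy sequence, and 76 were neither shared nor multi-copy. Among the 190 peaks with a match, 76 lay at starts, 18 were shared and 2 lay in multi-copy sequence. Over all 300 peaks these shares were 44.3%, 14.3% and 4.67%. Peaks used for the fit are included. In 66 of the 110 the best score reached the lower level that 1% of mm9 windows reach, and in 44 it did not. Among the peaks of the other FLAG samples 3.27% reached this level, matches included. The 110 had a median GC content of 65.5%, and no set of like GC content was counted. The 66 are therefore not shown to hold weak sites.

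Most copies of the motif in mm9 had no peak. Of the 1000 best-scoring sites, with scores of at least 23.7 bits, 113 lay inside a Zfp46 peak, or 11.3% (interval 9.48% to 13.4%). The share fell with the rank of the score, from 17% of the 100 best sites (interval 10.9% to 25.5%) to 9.57% of the 700 sites that complete the 1000 best, 2.25% of the next 2000 and 0.399% of the 11032 sites below them. These counts include the 151 peaks used for the fit, whose sites score high in part because the motif was fitted to them. The fall with rank is therefore partly built in, and it was not counted without those peaks. The depth of the library is not known here, so a site outside a peak is not shown to be unbound.

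Position went with this share. Of the 123 best sites within 1 kb of a transcript start 30 lay in a peak, or 24.4% (interval 17.7% to 32.7%), against 83 of 877 farther away, or 9.46% (interval 7.70% to 11.6%). Of the 92 sites in windows with at least 60% GC 25 lay in a peak, or 27.2% (interval 19.1% to 37.0%), against 23 of 331 in windows under 50% GC, or 6.95% (interval 4.67% to 10.2%). In both pairs the intervals were apart. Peaks used for the fit are included in these counts too. Starts and high GC content go together in mm9, and their parts were not separated.

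**Figure D5:**
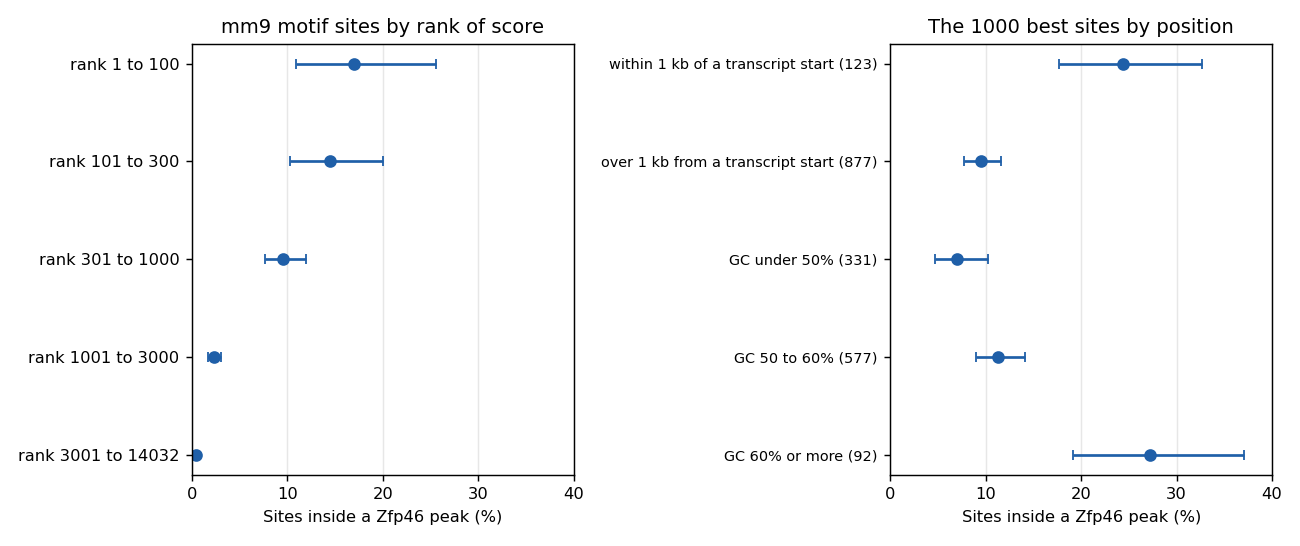
Share of mm9 motif sites that lie inside a Zfp46 peak, with 95% Wilson intervals, by rank of the motif score (left) and, for the 1000 best sites, by distance to a transcript start and by GC content of the 200 bp around the site (right, number of sites in brackets). The share falls from 17% for the 100 best sites to 0.399% for the lowest ranks, and stands at 24.4% near transcript starts and 9.46% away from them. Peaks used to find the motif are included.

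Zfp46 peaks were spread unevenly over the chromosomes. Chromosomes 4 and 2 held 34 and 33 peaks, or 11.3% (interval 8.22% to 15.4%) and 11% (interval 7.94% to 15.05%), while they hold 5.94% and 6.97% of the bases of mm9. They held 7.07% and 7.5% of the 14032 motif sites in mm9, and 5.84% and 7.09% of the peaks of the other FLAG samples. Chromosome 13 held 3 peaks, or 1% (interval 0.341% to 2.90%), with 3.74% of the sites and 4.80% of the peaks of the other FLAG samples. Chromosome X held 5 peaks, of which 3 were among the 10 strongest of the sample. The 34 peaks on chromosome 4 include the 2 in the Zfp46 gene, where reads from the vector cannot be told apart. No rule set beforehand named these chromosomes.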

How the data were processed

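The peaks of 1 ChIP-seq sample per KRAB-ZFP were analysed as deposited. Per the labels and methods, the authors trimmed the first bases of single-end reads and mapped them to mm9 with Bowtie, placing a read with several best positions at one of them at random. They called peaks with MACS 1.4.2 in each sample without pooling, at p under 1e-10 and enrichment over 20 for Zfp46, and set each peak to 200 bp around its summit. The deposited values are the tag count, the score (10 times the negative log10 of p), the fold enrichment as a ratio and the false discovery rate in percent. The deposited score was used only to filter and rank. Among the FLAG samples 12 had the thresholds of Zfp46, and others were called at enrichment over 10 or p under 1e-05. Library depth is not known. Of 53255 peaks, 244 under a name that matched no label were not used.

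Windows were read from mm9 as 1-based positions, taking the deposited start as 0-based, with Python 3 scripts (numpy, numba). The weight matrix was fitted by expectation maximisation from enriched 8-mers on odd-numbered chromosomes, in windows with a median 24-mer copy number of 1, and was tested on simulated data. Transcript starts and classes came from the GENCODE annotation of the same build. Shares have 95% Wilson intervals; no test across peaks was made, since the peaks of a sample share 1 library. The members, lists and comparisons were chosen with earlier results of these data known. Named were the 10 strongest peaks, the loci called in most other FLAG samples, the 15 strongest protein-coding starts within 1 kb, all list members with a summit in the body or within 10 kb of a start, and the samples at the ends of each share. No peak was called in 3 or more other FLAG samples, so the 2 loci called in 2 others were named after their values were seen. Alternatives changed the match threshold, window, motif width, peak thresholds, distances, copy number and overlap.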

Additional observations from a re-analysis of the deposited data

How the results depend on the processing

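With each choice changed on its own, 0 alternative values reversed and 14 moved beyond the interval of the main share or beyond 1.5 times a count. The other 21 did not, where values of fold were held only to the wide bar of 1 SD over peaks. Only the difference in median fold could be labelled reversed, so for shares and counts the 0 was fixed in advance. A false discovery rate of at most 5% could change nothing, since no Zfp46 peak exceeded 0.2%. The share of Zfp46 peaks not used for the fit that held the motif was 84.9% at the score that 1% of windows reach and 36.7% at the score that 0.01% reach, 51.8% with a motif of 16 bases and 73.4% with 24 bases. The share in the other FLAG samples was 3.27% and 0.049% at the looser and stricter scores, and 0.0853% without Gm13152, a comparison added after seeing the data. Zfp46 had 59 peaks at an enrichment over 40. Summits within 500 bp of a start made up 35% and within 5 kb 62.0%. Multi-copy sequence at a median of at least 2 copies held 9.33%. Without Gm13152, also added later, 1.33% of loci were shared. Of the 300 best mm9 sites 15.3% lay in a Zfp46 peak, and of the 3000 best 5.27%, with peaks used for the fit included. The difference in median fold between Zfp46 peaks with and without the motif was 1.75 over all 300 peaks, including those used for the fit. It was 0.47 and 3.19 at the looser and stricter scores, so its size depends on the threshold. It was 1.70 with scores equal to the threshold counted, an alternative added after seeing the data. In peaks not used for the fit the medians were 28.91 with the motif and 28.86 without. The share in soft-masked sequence was not run because the mm9 reference used here is not soft-masked. No paired analysis was possible because each KRAB-ZFP had 1 sample. The unknown library depth limits every statement on a site without a peak.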

Other observations

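Outside the FLAG samples, 15 of 300 Zfp46 loci overlapped a peak of 1 of 5 HA-tagged KRAB-ZFPs, and Gm14412 in F9 EC cells overlapped 10 of them, 1 with a match. The matching share for the peaks of the other FLAG samples was not counted. Among the 49 samples outside the FLAG group the highest shares of peaks with the Zfp46 motif were 1.39% in Zfp456 (1 of 72 peaks) and 1.39% in Zfp933 (3 of 216), with intervals reaching 7.46% and 4.003%.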
